A study of Homo sapiens with 9 samples.

Results

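Protein disulfide isomerases (PDIs) and the ERO1 oxidases were followed in HEK293 cells, a human embryonic kidney line, that made mutant or wild-type surfactant protein C (SP-C). Of 10 genes listed (P4HB, PDIA3, PDIA4, PDIA5, PDIA6, TXNDC5, ERP29, ERP44, ERO1A and ERO1B), 8 had probe sets that the platform annotation gives to that gene alone. These 8 genes had 21 probe sets of the 54613 on the array that are not controls, and all 21 were among the 32768 tested. PDIA5 and TXNDC5 each had 1 probe set, annotated to a second gene as well, so both are described apart from the 8. The rule for membership uses names and no signal, although the set was proposed with earlier results of these data known.

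LQ cells carried SP-C with the L188Q substitution, Ex4 cells SP-C lacking exon 4, and WT cells the wild-type protein. Each group had 3 Affymetrix arrays. All 9 arrays came from transiently transfected cells, so the WT cells also overproduced a secretory protein, and no untransfected or empty-vector cells were analysed here. HEK293 cells are not the lung epithelial cells that normally make SP-C. The comparisons ask which transcripts differ between cells making a mutant and cells making the wild-type protein. Whether the replicates of a group came from separate cultures is not stated, and the p-values therefore measure spread among arrays that may be technical alone. In bulk RNA of this kind, a difference in the share of transfected cells and a difference in RNA per cell cannot be told apart.

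Disulfide bonds of secreted and membrane proteins are made in the endoplasmic reticulum (ER). PDIs carry thioredoxin-like domains and pass a disulfide to a folding protein, or rearrange bonds that formed wrongly, and ERO1 recharges the PDI with electrons passed on to oxygen. The proprotein of SP-C has disulfides in its C-terminal BRICHOS domain, and L188Q lies in that domain. When unfolded protein builds up in the ER, the sensors IRE1, PERK and ATF6 start the unfolded protein response, which raises transcription of ER chaperones and of several PDIs.

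Promoter sequences show which of these genes carry the response's known binding elements close to the start of transcription. They are from RefSeq on build GRCh38.p14, in a table of 35116 windows from 250 bases before to 50 bases after a start, and 9 of the 10 genes were in it. The ER stress response element (ERSE) is CCAAT, then 9 bases, then CCACG, and 27 windows (0.0769%) held it on either strand. PDIA6 and ERO1B each had 1 match among the listed genes, and HSPA5, whose element is well known, is shown for comparison. P4HB, the gene whose signal differed in LQ cells on only 1 of its probe sets, is shown because no match was found in its window. The bases below end 1 base before the start, run 5′ to 3′ on the strand of the gene, and have the matched element in capitals. All 4 genes lie on the minus strand.
PDIA6 second start, chr2:10812786-10812935: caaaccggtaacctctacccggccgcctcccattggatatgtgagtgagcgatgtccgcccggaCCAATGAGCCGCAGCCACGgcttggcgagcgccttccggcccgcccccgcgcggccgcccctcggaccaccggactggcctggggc
ERO1B, chr1:236281959-236282208: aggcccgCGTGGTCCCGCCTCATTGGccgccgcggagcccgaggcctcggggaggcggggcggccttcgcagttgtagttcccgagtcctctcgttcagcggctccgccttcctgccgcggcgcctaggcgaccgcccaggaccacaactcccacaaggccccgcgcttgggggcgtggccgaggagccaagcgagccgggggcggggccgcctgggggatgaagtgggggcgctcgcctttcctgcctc
HSPA5, chr9:125241344-125241493: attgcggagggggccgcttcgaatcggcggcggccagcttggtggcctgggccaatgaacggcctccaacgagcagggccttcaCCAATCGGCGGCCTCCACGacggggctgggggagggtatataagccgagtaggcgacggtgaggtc
P4HB, chr17:81860536-81860785: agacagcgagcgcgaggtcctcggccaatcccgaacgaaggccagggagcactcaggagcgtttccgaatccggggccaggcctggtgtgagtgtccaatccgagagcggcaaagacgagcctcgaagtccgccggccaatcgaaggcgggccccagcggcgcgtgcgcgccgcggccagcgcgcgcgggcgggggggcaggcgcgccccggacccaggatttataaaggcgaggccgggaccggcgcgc

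In PDIA6 the element lay at positions -86 to -68 from the start, and in HSPA5 at -66 to -48. In ERO1B it lay farther out, at -243 to -225, and on the opposite strand, so its printed letters begin with CGTGG. The motif TGACGTGG, a site for ATF6 and XBP1 called UPRE, was in 256 windows (0.729%) and in 1 listed gene, at -92 to -85 of the second start of TXNDC5. ERSE-II is ATTGG, 1 base, CCACG (19 windows, 0.0541%), and CARE, the element read by the ATF4 group of factors, is TGATG, 1 base, AAT (348 windows, 0.991%). Neither was found in a window of the listed genes, and a window without a match says only that these letters were not there. A match is a string of letters and not a measured binding site.

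The deposited values are linear MAS5 intensities, analysed as log2(value + 16). Changes are given on that scale with the standard error (SE) of the limma fit, and the probe set of a gene with the highest mean stands for that gene. The call was an adjusted p under 0.05, with Benjamini-Hochberg adjustment over all probe sets tested. The transfected gene, SFTPC, gave 118126 to 129027 in LQ, 97702 to 172184 in Ex4 and 160706 to 231145 in WT cells on probe set 38691_s_at. On 214387_x_at it gave 108292 to 126185 in LQ, 28.7 to 914.4 in Ex4 and 158962 to 239964 in WT cells, so the Ex4 arrays overlapped both other groups on the first and lay far below them on the second. Array medians were 303.9 to 371.8 in LQ, 316.1 to 434.3 in Ex4 and 506.4 to 524.4 in WT, although the trimmed means of all arrays lay between 1493 and 1495, so every change here depends on the scaling. The median change over all 14018 genes was -0.09 in LQ and -0.08 in Ex4 against WT. Ex4 replicate 1 correlated on average at 0.927 with LQ arrays, 0.906 with the other Ex4 arrays and 0.911 with WT arrays. Ex4 replicates 2 and 3 also correlated more with LQ (0.948 and 0.941) than with their own group (0.926 and 0.927). WT replicate 1 had 0.907 with LQ, 0.906 with Ex4 and 0.892 with the other WT arrays. The 3′ to 5′ signal ratio of GAPDH, a sign of RNA integrity, was 1.06 to 1.09 in LQ, 0.956 to 1.22 in Ex4 and 1.21 to 1.43 in WT cells. The same ratio of ACTB was 1.15 to 1.23 in LQ, 1.15 to 1.48 in Ex4 and 1.05 to 1.27 in WT cells. ACTB thus did not order the groups as GAPDH did.

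The HEK293 marker list (NEFL, NEFM, VIM, KRT8, KRT18 and PAX2) was above the array median on every array for 6 of 6 genes. Its summed intensity was 132906 to 146254 in LQ, 128857 to 134039 in Ex4 and 135689 to 178633 in WT cells, and in LQ cells 1 marker, PAX2, fell by 2.04 (limma adjusted p = 0.025). The 5 blood cell markers summed to 1315 to 1555 in LQ, 1538 to 1671 in Ex4 and 2319 to 2975 in WT cells. Of these, CD79A alone was above the array median on every array. PTPRC, CD14, CD3D and HBB were below it on 9, 8, 7 and 7 arrays. The 5 fibroblast markers summed to 3121 to 4277 in LQ, 4626 to 5851 in Ex4 and 6480 to 7801 in WT cells. Most of that sum was COL1A1, with means of 3026 in LQ, 4127 in Ex4 and 5862 in WT cells. COL3A1, LUM and DCN were below the array median on 9, 9 and 8 arrays. COL1A1 fell by 0.96 in LQ (limma adjusted p = 0.028). No marker was listed at 0. The blood and fibroblast sums moved with the groups, as the array medians did, and their part in the results below was not tested.

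In LQ cells P4HB was the 1 gene of the 8 that rose against WT, and it did so on 1 of its 3 probe sets. Over all genes limma called 3.69% higher, and a count of 1 gene cannot speak for the family. The other 7 genes did not pass. On the representative probe sets as deposited, the upper end of the 95% interval was under 1, a 2-fold rise, for 7 of the 8 genes. On other probe sets that end was 1.07 for ERO1A (218498_s_at) and 1.58 for ERO1B (220012_at). The members' median change was 0.04, with 5 of 8 changes above 0, beside -0.09 and 43.6% of all genes. Among the 21 probe sets 8 had a change above 0 and 13 below, between -0.57 and 0.86, and 1 passed, where 6.81% of all tested probe sets passed.

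In Ex4 cells 0 of the 8 genes passed against WT by limma, as did 0% of all 14018 genes. At an unadjusted limma p under 0.05 there was 1 of the 8 (ERO1B), where 27.2% of all genes reached that level. The median was 0.08, with 4 of 8 above 0, and changes ranged from -0.53 to 0.74 over the 21 probe sets. None of the 21 passed, where 0.0122% of all probe sets did. LQ and Ex4 set against each other also gave 0 of 8, with 0% called among all genes. At an unadjusted limma p under 0.05 there were 0 of 8, beside 4.19% of all genes. Comparisons with WT share the same 3 WT arrays.

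**Figure D1:**
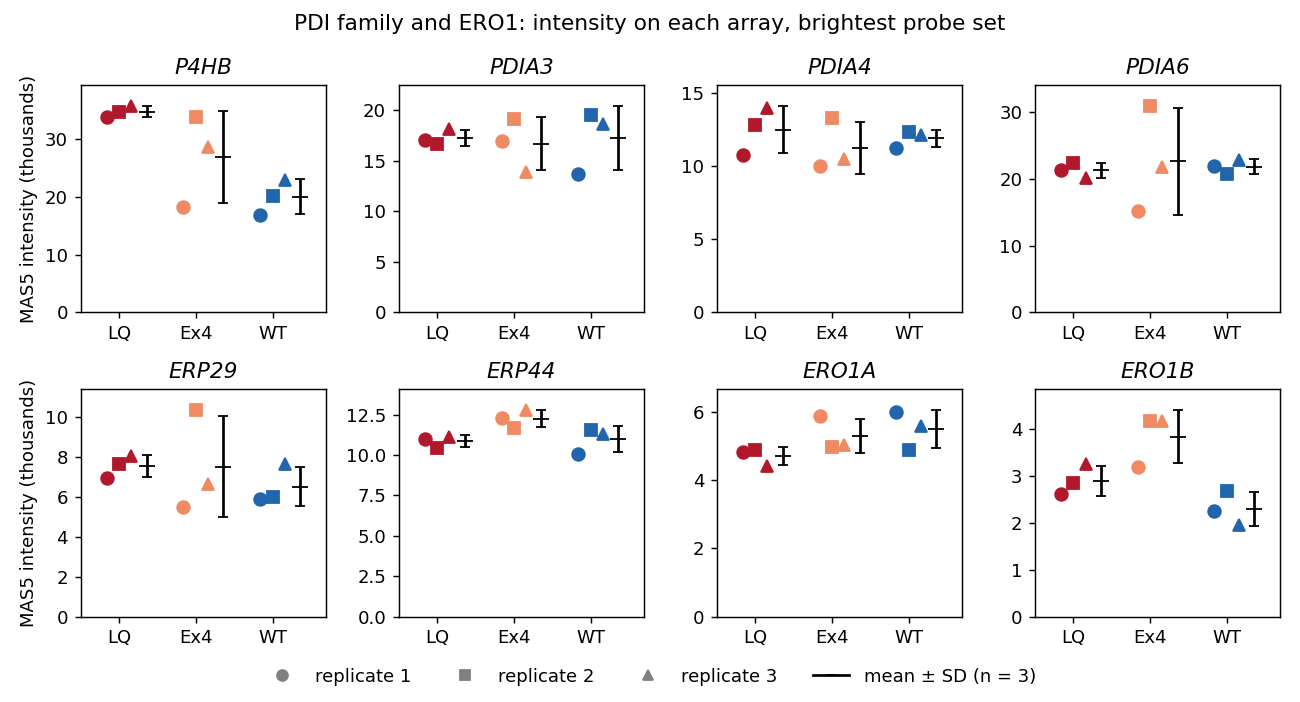
MAS5 intensity on each array (vertical axis, starting at 0) for the representative probe set of each of the 8 genes, with LQ, Ex4 and WT from left to right. Points are replicates and bars the mean ± SD (n = 3). The LQ points of P4HB lie between 33905 and 35872, above all WT points, while the Ex4 points of ERO1B, from 3182 to 4170, lie above all its WT points and overlap its LQ points.

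P4HB is the founding protein disulfide isomerase and doubles as the beta subunit of prolyl 4-hydroxylase and as a subunit of the microsomal triglyceride transfer protein. On its representative probe set, 200654_at, it had 33905, 34771 and 35872 on LQ replicates 1, 2 and 3. Ex4 replicates 1, 2 and 3 had 18198, 33814 and 28709, and WT replicates 1, 2 and 3 had 16937, 20146 and 23029. The LQ arrays lay close together and above every WT array, while the Ex4 arrays spread from the WT range almost to the LQ range. The log2 change in LQ was 0.81 ± 0.21 (SE, limma adjusted p = 0.044, 95% interval 0.35 to 1.26), a 1.75-fold rise. Ex4 differed from WT by 0.39 ± 0.21, which did not pass (limma adjusted p = 0.26, interval -0.06 to 0.84). LQ exceeded Ex4 by 0.42 with no overlap of arrays, and this too did not pass (limma adjusted p = 0.9999, interval -0.03 to 0.87).

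The other P4HB probe sets did not show the rise. On 200656_s_at, LQ replicates 1 to 3 had 15207, 15831 and 16871, Ex4 had 12064, 23223 and 16378, and WT had 15911, 18270 and 18656. On 1564494_s_at the values were 8901, 9425 and 7968 in LQ, 8564, 6500 and 7527 in Ex4, and 9059, 11968 and 11746 in WT. LQ overlapped WT on both, whereas every Ex4 array lay below every WT array on 1564494_s_at. The changes in LQ were -0.14 ± 0.20 and -0.31 ± 0.17 (limma adjusted p = 0.68 and 0.24). In Ex4 they were -0.08 ± 0.20 and -0.53 ± 0.17 (limma adjusted p = 0.84 and 0.10). The probe sets of P4HB therefore disagreed in sign, and averaged over the 3 probe sets the change in LQ was 0.12 (limma adjusted p = 0.62). Leaving out 1 array at a time, the change of 200654_at stayed between 0.69 and 0.91 but was called in 2 of 9 fits, those without Ex4 replicate 1 or Ex4 replicate 2 (adjusted p 0.0097 to 0.14 over the 9).

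**Figure D2:**
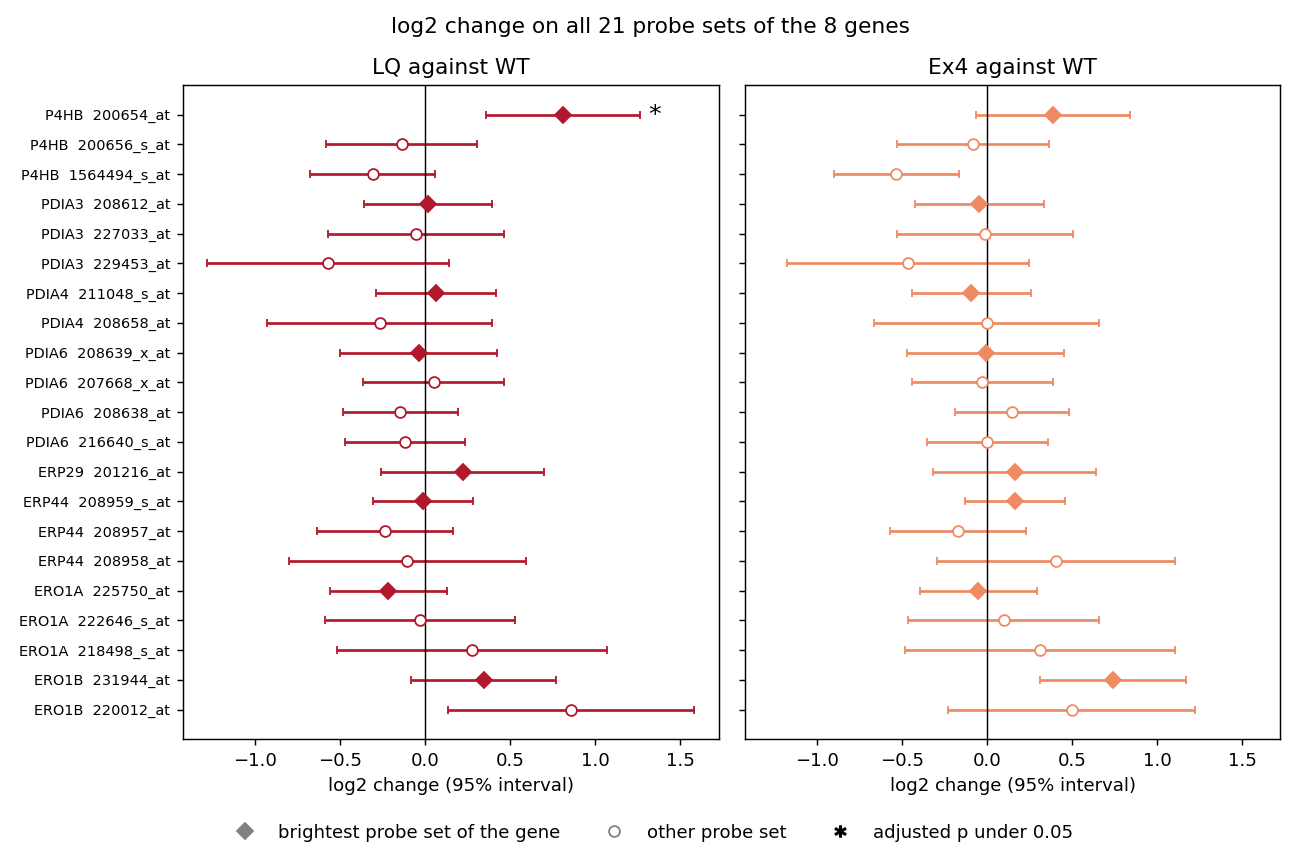
The log2 change on each of the 21 probe sets (horizontal axis, with 95% intervals), LQ against WT on the left and Ex4 against WT on the right. Diamonds mark the representative probe set and the star the 1 probe set that passed, P4HB 200654_at in LQ at 0.81, while the other P4HB probe sets lie at -0.14 and -0.31.

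PDIA3, the isomerase that works with calnexin and calreticulin on glycoproteins, showed no difference beyond the spread. Its probe set 208612_at had 17014, 16670 and 18166 on LQ replicates 1, 2 and 3, 17005, 19150 and 13920 on the Ex4 ones and 13662, 19581 and 18616 on the WT ones. All 3 groups overlapped. The change was 0.02 ± 0.17 in LQ (interval -0.36 to 0.39) and -0.05 ± 0.17 in Ex4 (interval -0.42 to 0.33). Its probe set 229453_at had 444.2 to 559 in LQ and 354.9 to 674.1 in Ex4, all below the 683 to 852.4 of WT, with changes of -0.57 ± 0.33 and -0.46 ± 0.33 (limma adjusted p = 0.26 and 0.39). The third probe set of PDIA3, 227033_at, had changes of -0.06 ± 0.24 in LQ and -0.01 ± 0.24 in Ex4.

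PDIA4, an isomerase with several active thioredoxin-like domains, is a known target of the unfolded protein response. On probe set 211048_s_at LQ replicates 1 to 3 had 10720, 12800 and 13937, Ex4 had 9998, 13250 and 10439, and WT had 11212, 12296 and 12125. The WT arrays lay inside the range of the LQ arrays. The change was 0.06 ± 0.16 in LQ (interval -0.29 to 0.42) and -0.09 ± 0.16 in Ex4 (interval -0.44 to 0.26), and the other probe set of PDIA4 gave -0.27 ± 0.30 and -0.0021 ± 0.30.

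PDIA6 binds the chaperone HSPA5 and is known to damp IRE1 signalling. Its 208639_x_at probe set, of a kind that can also take up related transcripts, had 21297, 22406 and 20193 on LQ replicates 1, 2 and 3. It had 15167, 31034 and 21757 on Ex4 replicates and 21913, 20745 and 22926 on WT replicates. LQ and WT covered nearly the same range, and the Ex4 arrays reached to both sides of it. The change was -0.04 ± 0.21 in LQ (interval -0.50 to 0.42) and -0.01 ± 0.21 in Ex4 (interval -0.47 to 0.45). Over the other 3 probe sets it lay between -0.15 and 0.05 in LQ, and between -0.03 and 0.15 in Ex4. PDIA6 and HSPA5 both have the ERSE printed above close to a start, and HSPA5 passed in LQ cells and PDIA6 did not. The difference between the changes of these genes was not tested.

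ERP29 and ERP44 differ from the enzymes above. ERP29 lacks the redox-active cysteine pair and acts in the folding and export of secretory proteins, and ERP44 cycles to the early secretory pathway and holds back ERO1 and unassembled proteins. On 201216_at ERP29 had 6955, 7649 and 8060 in LQ, 5511, 10382 and 6670 in Ex4, and 5884, 6025 and 7657 in WT, in replicate order. The groups overlapped, with changes of 0.22 ± 0.22 in LQ and 0.16 ± 0.22 in Ex4 (limma adjusted p = 0.53 and 0.67). The ERP44 probe set 208959_s_at had 10981, 10436 and 11117 in LQ, 12315, 11677 and 12756 in Ex4, and 10046, 11543 and 11290 in WT. Every Ex4 array lay above every LQ and WT array, by a small margin. The change in Ex4 was 0.16 ± 0.14 (limma adjusted p = 0.48, interval -0.13 to 0.46). In LQ it was -0.01 ± 0.14 (interval -0.31 to 0.28), and LQ against Ex4 gave -0.18 ± 0.14 (limma adjusted p = 0.9999). On the other ERP44 probe sets LQ had -0.24 and -0.10, and Ex4 had -0.17 and 0.41, none passing.

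ERO1A, the broadly expressed oxidase, also known for its response to low oxygen, was listed in older annotation as ERO1L. On 225750_at it had 4849, 4907 and 4424 in LQ, 5893, 4994 and 5050 in Ex4, and 6022, 4903 and 5603 in WT. Its mean was lowest in LQ, higher in Ex4 and highest in WT. Neither mutant was separate from WT, and every LQ array lay below every Ex4 array. The change was -0.22 ± 0.16 in LQ (limma adjusted p = 0.38, interval -0.56 to 0.13) and -0.05 ± 0.16 in Ex4 (limma adjusted p = 0.87, interval -0.40 to 0.29). On its other probe sets LQ had -0.03 ± 0.26 and 0.27 ± 0.36, and Ex4 had 0.10 ± 0.26 and 0.31 ± 0.36.

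ERO1B, the second oxidase, is known for its high expression in the pancreas and as a target of the unfolded protein response. On 231944_at it had 2607, 2848 and 3243 on LQ replicates 1, 2 and 3, 3182, 4170 and 4167 on Ex4 replicates, and 2250, 2677 and 1951 on WT replicates. The means ran Ex4, LQ and WT from high to low. Every Ex4 array lay above every WT array, and LQ overlapped both. The change was 0.74 ± 0.20 in Ex4 (interval 0.31 to 1.17), 1.67-fold, and did not pass (limma adjusted p = 0.083, unadjusted 0.0027). In LQ it was 0.34 ± 0.20 (limma adjusted p = 0.27, interval -0.09 to 0.77). LQ against Ex4 gave -0.40 ± 0.20 (limma adjusted p = 0.9999, interval -0.83 to 0.03).

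The other ERO1B probe set, 220012_at, reversed the order of the mutants. It had 1233, 924.2 and 986.6 in LQ, 915.8, 899.5 and 636.1 in Ex4, and 893.5, 532.1 and 380.6 in WT, with 1 array below its array median. Every LQ array lay above every Ex4 and WT array. The change was 0.86 ± 0.33 in LQ (limma adjusted p = 0.12) and 0.50 ± 0.33 in Ex4 (limma adjusted p = 0.37). Both probe sets gave positive changes in both mutants, none passing with all 9 arrays. In Ex4 the adjusted p of 231944_at was 0.020 without Ex4 replicate 1 (change 0.87) and 0.048 without WT replicate 1 (change 0.73), and up to 0.25 over the 9 fits that left out 1 array. On 220012_at ERO1B was called in LQ without WT replicate 1 (1.18, adjusted p = 0.030). Without Ex4 replicate 1, the P4HB probe sets were called in Ex4 in opposite directions, 200654_at higher (0.65, adjusted p = 0.029) and 1564494_s_at lower (-0.63, adjusted p = 0.041). The lower call of 1564494_s_at was also made without WT replicate 1 (-0.66, adjusted p = 0.026). Over all probe sets, Ex4 calls went from 4 with all arrays to 4433 without Ex4 replicate 1 and 3679 without WT replicate 1.

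Counted by arrays, 1 of the 8 genes (P4HB) had every LQ array above every WT array, where 15.7% of all genes did. In Ex4 there were 2 (ERP44 and ERO1B), where 9.07% did. Between LQ and Ex4, 1 gene (P4HB) had every LQ array above, beside 5.91% of all genes, and 2 (ERP44 and ERO1A) had every LQ array below, beside 6.47%.

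Both mutants together were also set against WT. By limma 0 of the 8 genes passed, where 12.9% of all genes did. At an unadjusted limma p under 0.05 there were 2 of the 8, where 34.9% of all genes reached that level. P4HB had 0.60 ± 0.18 (limma adjusted p = 0.051) and ERO1B 0.54 ± 0.17 (limma adjusted p = 0.057), both close to the threshold. A two-sided exact permutation test over the 84 splits of the arrays, whose smallest p is 0.012, gave 0.060 for P4HB and 0.048 for ERO1B. Adjusted over all probe sets these were 0.19 and 0.17. The exact permutation p of the other 6 genes was 0.25 or more. With 3 arrays against 3, an exact test cannot go below 0.1.

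The scaling of the arrays moved all of these changes together. After centring every array on its own median, the median change over all tested probe sets was 0.44 in LQ and 0.37 in Ex4, against -0.15 and -0.12 as deposited. P4HB then had 1.39 and ERO1B 0.93 in LQ (limma adjusted p = 0.0055 and 0.024), and ERO1B had 1.23 and ERP44 0.65 in Ex4 (limma adjusted p = 0.015 and 0.045). That setting called 8452 of all 32768 tested probe sets in LQ and 5106 in Ex4, against 2231 and 4 as deposited. After quantile normalization the medians were 0.04 and 0.02, P4HB kept its call in LQ at 0.75 (limma adjusted p = 0.043), and PDIA3 and PDIA4 turned negative in LQ at -0.11 and -0.10. Centring adds the same amount to every gene, 0.58 in LQ and 0.49 in Ex4, so it leaves their order as it was.

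**Figure D3:**
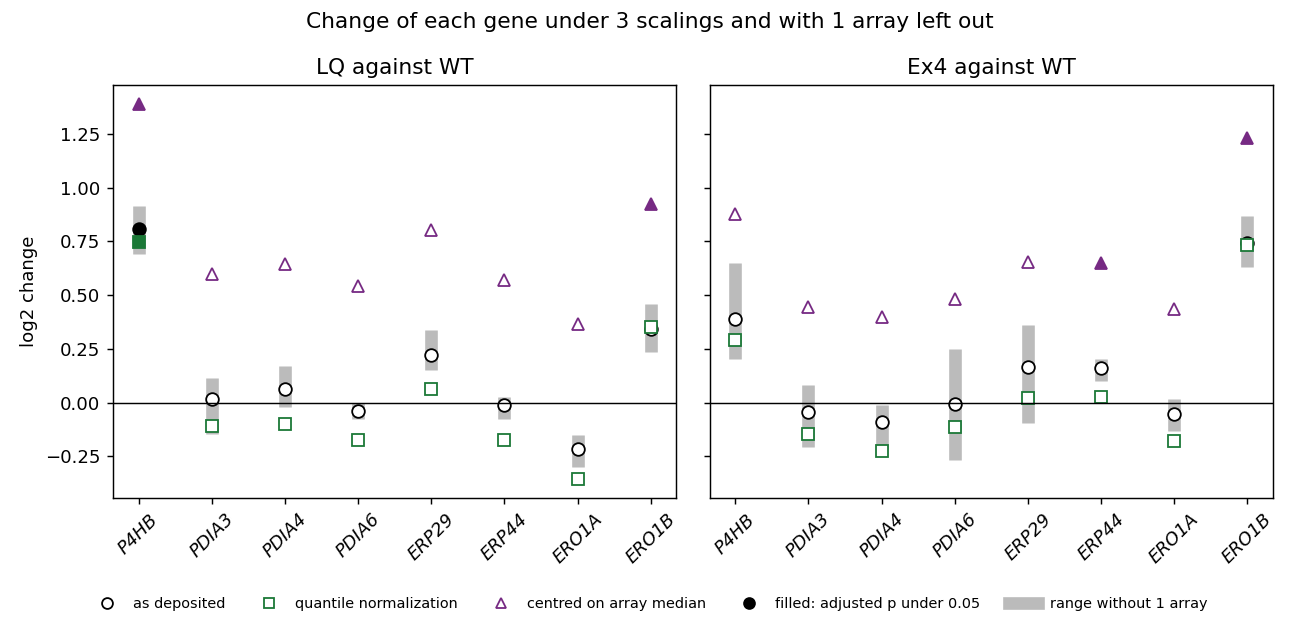
The log2 change of each of the 8 genes (vertical axis) as deposited, after quantile normalization and after median centring of the arrays, LQ against WT on the left and Ex4 against WT on the right. Grey bars span the fits as deposited with 1 array left out, and filled symbols passed. Centring lifts every gene, with P4HB at 1.39 in LQ and ERO1B at 1.23 in Ex4.

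The 2 probe sets annotated to a pair of genes were measured but cannot be given to 1 gene. The one annotated to PDIA5, an isomerase known to reduce ATF6, and to MIR7110 had 2399, 2095 and 2373 in LQ, 2037, 2700 and 2568 in Ex4, and 2580, 2574 and 2304 in WT. Its groups overlapped, with changes of -0.12 ± 0.19 in LQ and -0.04 ± 0.19 in Ex4. The one annotated to TXNDC5, an isomerase of the thioredoxin-domain group, and to the readthrough gene BLOC1S5-TXNDC5 had 31264, 31848 and 30975 in LQ, 30231, 37053 and 31578 in Ex4, and 31888, 46731 and 43934 in WT. Every LQ array lay below every WT array there, with a change of -0.36 ± 0.16 (limma adjusted p = 0.17), and Ex4 had -0.30 ± 0.16 (limma adjusted p = 0.28).

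Other lists give the setting of the family, chosen by function and with earlier results of these data known. Of 17 other ER thiol oxidoreductases 12 were tested. In LQ 5 of the 12 had changes above 0, beside 43.6% of all genes, and 1 rose and 0 fell, beside 3.69% of all genes called higher. Their median was -0.01. TXNDC16, a luminal protein with thioredoxin-like domains, was the one that rose, with 5703 to 7438 in LQ and 1487 to 2765 in WT cells. Its change was 1.80 ± 0.26 (limma adjusted p = 0.013), and in Ex4 (3828 to 6422) it was 1.42 ± 0.26 (limma adjusted p = 0.076). DNAJC10, a reductase that helps degrade misfolded proteins, had 0.84 ± 0.26 in LQ and 0.92 ± 0.26 in Ex4 (limma adjusted p = 0.066 and 0.088). TMX3, a membrane-bound isomerase, had 0.40 and 0.74 (limma adjusted p = 0.27 and 0.10). Without WT replicate 1, DNAJC10 (1.15 and 1.23) and TMX3 (0.71 and 1.05) were called in LQ and in Ex4, and TXNDC16 in Ex4 as well (1.70). That fit called 4993 of all 32768 probe sets in LQ and 3679 in Ex4, against 2231 and 4 with all arrays. In Ex4 8 of the 12 were above 0 and none passed, with a median of 0.10.

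Of 7 other ER oxidants, the enzymes that can make disulfides without ERO1, 6 were tested and none passed. In LQ 2 of the 6 were above 0 with a median of -0.18, and in Ex4 3 of 6 with a median of -0.02. QSOX1 and QSOX2, sulfhydryl oxidases, had 1.12 and 0.82 in LQ (limma adjusted p = 0.070 and 0.10), and without WT replicate 1 QSOX2 was called (1.096, adjusted p = 0.029). On a second probe set QSOX1 fell by 1.70 (limma adjusted p = 0.033). GPX8, a peroxidase of the ER membrane, had -0.41 (limma adjusted p = 0.29).

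Of 9 partners of PDI proteins 8 were tested. In LQ 3 of the 8 were above 0, 0 rose and 1 fell, where 3.63% of all genes fell, with a median of -0.24. The one that fell was CALR (calreticulin, the lectin chaperone that recruits PDIA3), with 6920 to 10817 in LQ and 13982 to 22121 in WT cells. CALR fell by 0.97 ± 0.22 on the log2 scale (limma adjusted p = 0.033), and its other probe sets had -0.16 and -0.45 (limma adjusted p = 0.65 and 0.23). With median centring its change was -0.39 (limma adjusted p = 0.29). In Ex4 it had -0.47 ± 0.22 (limma adjusted p = 0.21), and 2 of the 8 partners were above 0, none passing. P4HA2, the alpha subunit that pairs with P4HB in collagen prolyl hydroxylation, had -0.52 in LQ and -0.29 in Ex4 (limma adjusted p = 0.19 and 0.49). P4HA3, another alpha subunit, had -1.21 and -1.30 (limma adjusted p = 0.24 and 0.23) and was below the array median on 7 arrays.

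The thioredoxin and glutaredoxin systems outside the ER had 11 of 12 genes tested, and none passed in either mutant. In both 5 of the 11 were above 0, with medians of -0.01 in LQ and -0.13 in Ex4. GLRX, a cytosolic glutaredoxin, had -0.49 in LQ (limma adjusted p = 0.12). TXN2, the mitochondrial thioredoxin, had -0.25 (limma adjusted p = 0.50), and TXNRD2, its reductase, had 0.73 ± 0.56 (limma adjusted p = 0.41), which became -0.19 without WT replicate 1.

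Of 5 genes taken as markers of the unfolded protein response, 4 rose in LQ, beside 3.69% of all genes called higher. The 5 were chosen with earlier results of these data known. HSPA5 rose by 0.77 ± 0.17, HERPUD1 by 1.26 ± 0.19, DNAJB9 by 1.01 ± 0.22 and HSP90B1 by 1.08 ± 0.22 (limma adjusted p = 0.033, 0.015, 0.030 and 0.026). DDIT3, the transcription factor CHOP, had 0.19 ± 0.19 in LQ and -0.20 ± 0.19 in Ex4 (limma adjusted p = 0.53 in both). None of the 5 passed in Ex4, beside 0% of all genes, and their median there was 0.94. The same 4 genes were called there without Ex4 replicate 1 (0.90 to 1.19) and without WT replicate 1 (0.94 to 1.22). Those fits called 4433 and 3679 of all 32768 probe sets in Ex4, against 4 with all arrays. Of the 4 that rose in LQ, HSPA5 had the smallest change. On the representative probe sets, the upper ends of the intervals of PDIA3, PDIA4, PDIA6, ERP29, ERP44 and ERO1A in LQ lay below that change. On another ERO1A probe set, 218498_s_at, the upper end was 1.07 and lay above it. These readings leave out the SE of HSPA5 itself (0.17). Other probe sets of these chaperones also gave smaller changes, with 0.13 for HSPA5 and -0.19 for HSP90B1 in LQ. Averaged over probe sets, the changes in LQ were 0.45 for HSPA5 and 0.45 for HSP90B1 (limma adjusted p = 0.089 and 0.14). Whether the PDI genes and the chaperones differed was not tested. In the promoter windows HSPA5 held 1 ERSE and HSP90B1 held 2, HERPUD1 held 1 ERSE-II, and none of the 4 motifs was found for DNAJB9.

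**Figure D4:**
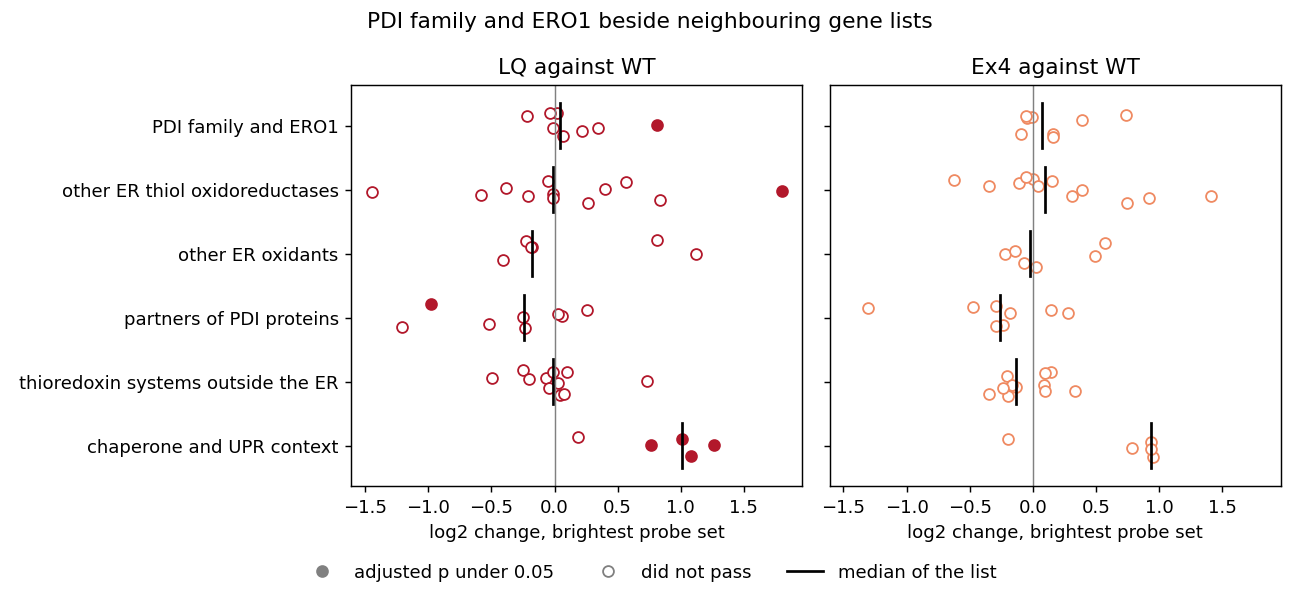
The log2 change (horizontal axis) of the representative probe set of each gene, by list, LQ against WT on the left and Ex4 against WT on the right. Filled points passed and bars mark medians: the PDI and ERO1 genes centre on 0.04 in LQ and 0.08 in Ex4, and the 5 response markers on 1.01 and 0.94. All lists were chosen with earlier results of these data known.

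Across the 9 arrays the 8 genes did not follow a single pattern. The correlation of log2 values was highest for PDIA6 with ERP29 (r = 0.81) and P4HB with ERP29 (r = 0.76), and lowest for P4HB with ERO1A (r = -0.82). ERO1A and ERO1B had r = -0.41. These are descriptions over 9 arrays that share 3 groups and 1 scaling. The correlations, and the likenesses below, use the representative probe set of each gene alone. Other probe sets of P4HB and ERO1B differed from those, as described above, and were not used here. The genes most like P4HB among 14018 were RNF14, a ubiquitin ligase (r = 0.99), ATP6AP1, an accessory subunit of the vacuolar proton pump (0.98), and ZNF598, a ubiquitin ligase for stalled ribosomes (0.98). ATP6AP1 had 12294 to 14870 in LQ, 5999 to 13197 in Ex4 and 4437 to 6842 in WT cells. The genes most like ERO1B were WSB1 (r = 0.97), UBE3D (0.94) and ZNF7 (0.94). For ERO1A they were FGF5 (0.96), PSG9 (0.95) and KCNB2 (0.95), and for PDIA4 BZW2 (0.94), LOC100272217 (0.93) and ZDHHC4 (0.93).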

How the data were processed

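Total RNA from transfected HEK293 cells was measured on 9 Affymetrix arrays, 3 per group, and groups follow the sample titles. The deposited values are linear intensities, 1 for each probe set on each array, and MAS5 produced them, per the submitters' processing notes, with version and scaling target not given in the sources used here. Of 54675 probe sets 62 are controls. Platform annotation gave 41091 of the others 1 gene, 1801 several and 11721 none, and only the first were named, with symbols updated through RefSeq (54 kept the annotation's symbol). The scale of log2(value + 16) understates changes of dim probe sets. Those whose mean lay under percentile 40 were left out, leaving 32768. One limma 3.58.1 model (R 4.3.3, variance trend, no replicate term) was fitted to all 9 arrays, with two-sided tests, Benjamini-Hochberg adjustment over all tested probe sets and a threshold of 0.05. It was also run on simulated data with independent noise and the same added changes in both mutants. Those data had no built-in difference in array medians, so that run does not cover the scaling of these arrays. Precision is limited by having 3 arrays in a group.

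The 10 genes, the other lists and the rule for names were chosen with earlier results of these data known. The rule took every listed gene, 5 response markers, list members that passed or up to 3 with the smallest p, and the 3 genes most like P4HB, PDIA4, ERO1A and ERO1B. The settings varied were the pseudocount (1 and 64), the normalization (quantile, or centring on the array median), the filter (none, or percentile 60), the variance trend (none), the arrays fitted (those compared, or all but 1 in turn), a replicate block, array weights, and averaging over the probe sets of a gene. Protein sequences were not used here.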

Additional observations from a re-analysis of the deposited data

How the results depend on the processing

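P4HB kept its positive change in LQ under every alternative run, and the ERO1B change in Ex4 did too, but calls depended on the setting. Against 1 called gene of 8 in LQ, 2 were called with arrays centred on their median, and 0 with no filter, with no variance trend and when the probe sets of a gene were averaged. Leaving out 1 array gave 0 to 1 in LQ, 0 to 2 in Ex4, 0 to 0 for LQ against Ex4 and 0 to 2 for both mutants. Against 0 in Ex4, 2 were called with median centring and 1 with array weights. For both mutants against WT, also 0, the counts were 4 with median centring, 2 with array weights, and 1 each with a pseudocount of 64, a filter at percentile 60 and the mean of probe sets. Samples with the same number correlated in their deviations from the group means at -0.083 to 0.191. For samples of different groups and numbers the range was -0.229 to 0.164. These ranges overlap and do not settle whether the numbers pair arrays, so the main fit used no pairing. With the replicate number as a block 1 gene was called in LQ (P4HB 0.81, adjusted p = 0.033), 0 in Ex4, 0 between the mutants and 1 for both mutants.

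Over all tested probe sets, LQ calls were 2231 as deposited, 8452 with median centring (7934 higher, 518 lower), 670 higher and 490 lower after quantile normalization, 442 with no variance trend, 4035 with the arrays compared alone, 8580 with array weights and 8 to 4993 with 1 array left out. Ex4 calls were 4 as deposited, 5106 with median centring (4824 higher, 282 lower), 6 higher and 3 lower after quantile normalization and 5287 with array weights. With 1 array left out they ran from 2 to 4433. For both mutants the calls were 3818 as deposited, 2400 after quantile normalization, 9736 with median centring, 1520 with no variance trend and 9036 with array weights. With 1 array left out these ran from 25 to 7229. LQ against Ex4 had 2 as deposited, and 0 to 3 under the alternatives that left out no replicate.

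Median centring adds 0.58 to every change in LQ and 0.49 in Ex4 by construction. It left CALR in LQ (-0.39) and P4HB 1564494_s_at in Ex4 (-0.045) negative, among others, but turned other negative changes positive. In LQ it gave 0.54 for PDIA6, 0.57 for ERP44, 0.37 for ERO1A, 0.44 and 0.27 for the other P4HB probe sets, 0.17 for GPX8, 0.065 for P4HA2, 0.088 for GLRX and 0.33 for TXN2. In Ex4 it gave 0.44 for PDIA3, 0.40 for PDIA4, 0.48 for PDIA6, 0.44 for ERO1A, 0.41 for P4HB 200656_s_at, 0.27 for GPX8, 0.0145 for CALR, 0.20 for P4HA2, 0.29 for GLRX, 0.14 for TXN2 and 0.29 for DDIT3. Quantile normalization gave -0.11 for PDIA3 and -0.10 for PDIA4 in LQ. Array weights gave -0.081 for PDIA3 in LQ, and 0.081 for PDIA6 and -0.17 for TXNRD2 in Ex4. Averaging the probe sets of a gene gave -0.20 for PDIA3, -0.10 for PDIA4, 0.0086 for ERO1A and -0.29 for QSOX1 in LQ. In Ex4 it gave -0.075 for P4HB, 0.028 for PDIA6, 0.12 for ERO1A, -0.23 for QSOX1 and -0.55 for TXNRD2.

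Leaving out 1 array turned the sign of several changes, most of them near 0, with TXNRD2 (0.73 in LQ and 0.33 in Ex4 with all arrays) the exception. In LQ the ranges were -0.14 to 0.11 for PDIA3, -0.019 to 0.17 for PDIA4, -0.075 to 1e-04 for PDIA6, -0.0745 to 0.026 for ERP44 and -0.19 to 1.27 for TXNRD2. In Ex4 they were -0.21 to 0.0795 for PDIA3, -0.27 to 0.25 for PDIA6, -0.095 to 0.36 for ERP29, -0.13 to 0.015 for ERO1A, -0.32 to 0.15 for P4HB 200656_s_at and -0.59 to 0.87 for TXNRD2. The calls of TXNDC16, CALR, HSPA5, HERPUD1, DNAJB9 and HSP90B1 in LQ each held in 4 of these 9 fits, with the same sign in all 9, and were lost without LQ replicate 1, 2 or 3 or WT replicate 2 or 3. With no variance trend CALR, HSPA5, DNAJB9 and HSP90B1 also lost theirs (adjusted p = 0.074, 0.078, 0.064 and 0.064). In Ex4, HSPA5, HERPUD1, DNAJB9, HSP90B1, TXNDC16, DNAJC10 and TMX3 were called without Ex4 replicate 1, without WT replicate 1, with array weights and with median centring. In LQ, array weights also called DNAJC10, TMX3 (0.55), QSOX1, QSOX2 and ERO1B 220012_at (1.08) as higher. They called GPX8 (-0.62) and P4HA2 (-0.64) as lower in LQ, and P4HB 1564494_s_at (-0.65) as lower in Ex4. Without Ex4 replicate 1, DNAJC10 and QSOX1 were called in LQ. Fits with an arm of 2 arrays pool the spread of all groups.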
